A study of Mus musculus with 10 samples.

Results

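Gpr84, Hcar2, Fpr1, Fpr2, Lpar5 and P2ry1 encode G protein-coupled receptors for fatty acids, other metabolites, formylated peptides, lysophosphatidic acid and ADP. They are 6 of 11617 genes listed in the deposited expression table, and all 6 passed the expression filter that left 11407 genes for testing. The genes were chosen by the size of their differences in level between the groups of these same libraries, so every difference given for them is a description and carries no test. The level of each gene is given in CPM, read counts divided by the library size that the authors scaled and multiplied by 1e6.

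The libraries hold mRNA from macrophages derived from bone marrow of C57BL/6 mice, grown with 50 ng/ml GM-CSF and 10% fetal bovine serum in every group. There were 5 groups with 2 libraries each: AmTARS for 3 h, AmTARS for 1 h, Pam3csk4 for 3 h, Pam3csk4 for 1 h, and control libraries, for which the labels name neither a ligand nor a time. AmTARS is an enzyme of the gut commensal Akkermansia muciniphila that loads threonine onto its tRNA, and Pam3csk4 is a synthetic lipopeptide ligand of Toll-like receptor 2. Pam3csk4 was given at 10 ng/ml, and the dose of AmTARS is labelled 0.5 with a unit written as mm, so doses of the ligands cannot be compared. The age of the mice is 7 weeks in one label and 6 weeks in another, and no label says if a group's libraries stem from different mice or cultures. P-values therefore measure only the spread between these libraries, which may be technical.

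Receptors of this family span the cell membrane and, once a ligand binds outside, switch on G proteins inside. Gpr84 binds medium-chain fatty acids and is known as a gene of activated myeloid cells, and Hcar2 binds niacin and the ketone body beta-hydroxybutyrate. Fpr1 and Fpr2 sense formylated peptides from bacteria and mitochondria and guide phagocytes towards them, and Fpr2 also binds annexin A1 and serum amyloid A. Lpar5 binds lysophosphatidic acid, and P2ry1 binds ADP and couples to calcium release.

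The genes lie on 5 mouse chromosomes (GENCODE M21, build GRCm38, which is mm10). Gpr84 is at chr15:103308235-103310612 on the minus strand with 2 exons, and a gene on the opposite strand, Gm49482, overlaps it. Hcar2 is a single-exon gene at chr5:123863570-123865499 on the minus strand. Fpr1 (chr17:17876471-17883940, minus strand) and Fpr2 (chr17:17887824-17893952, plus strand) are neighbours that point away from each other, with start sites 3884 bases apart. Lpar5 is at chr6:125067920-125082472 on the plus strand. P2ry1 is at chr3:61002795-61008982 on the plus strand, with Gm37035 on the opposite strand. The library kit keeps the strand, but whether the counting used it is not given in the sources used here, so reads of these antisense partners may be included.

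Fpr2 shares sequence with other genes. Of its 1084 stretches of 50 bases, 403 (37.2%) also occur in transcripts of Fpr1, Fpr3 or Gm5966, while Fpr1 shares 1 of 1275 and the other 4 genes share none. The annotation of Fpr3 also overlaps that of Fpr2 on the same strand. The level of Fpr2 is therefore uncertain where the counting could assign such reads to either gene.

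The start regions of the genes are shown because 4 of the genes were higher and 2 lower with both ligands at 3 h. RefSeq promoters (build GRCm38.p6) matched 5 of the 6 genes, Gpr84, Fpr1, Fpr2, Lpar5 and P2ry1. Hcar2 had no entry. Each stretch below ends just before the first annotated start, runs 5′ to 3′ on the strand of the gene, and has capitals where it matches the C/EBP motif TTNCNNAA or the Sp1 motif GGGCGG on either strand. They lie at chr15:103310613-103310688, chr17:17883941-17884189, chr17:17887574-17887823, chr6:125067670-125067919 and chr3:61002535-61002784, in the order shown.
Gpr84: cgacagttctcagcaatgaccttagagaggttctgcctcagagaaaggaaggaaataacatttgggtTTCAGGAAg
Fpr1: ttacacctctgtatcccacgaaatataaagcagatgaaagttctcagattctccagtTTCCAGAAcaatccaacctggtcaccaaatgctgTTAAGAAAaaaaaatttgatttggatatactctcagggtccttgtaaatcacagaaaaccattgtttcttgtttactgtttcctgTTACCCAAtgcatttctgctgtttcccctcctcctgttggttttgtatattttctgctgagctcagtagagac
Fpr2: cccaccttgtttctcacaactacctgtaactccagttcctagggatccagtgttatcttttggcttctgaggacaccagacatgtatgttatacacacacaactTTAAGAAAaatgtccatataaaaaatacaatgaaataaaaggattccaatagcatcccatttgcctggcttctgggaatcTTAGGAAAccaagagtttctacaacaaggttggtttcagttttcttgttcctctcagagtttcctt
Lpar5: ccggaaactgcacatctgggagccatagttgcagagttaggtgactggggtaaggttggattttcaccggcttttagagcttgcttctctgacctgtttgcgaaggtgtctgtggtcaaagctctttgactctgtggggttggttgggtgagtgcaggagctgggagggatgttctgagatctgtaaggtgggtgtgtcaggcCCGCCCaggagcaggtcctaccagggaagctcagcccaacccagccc
P2ry1: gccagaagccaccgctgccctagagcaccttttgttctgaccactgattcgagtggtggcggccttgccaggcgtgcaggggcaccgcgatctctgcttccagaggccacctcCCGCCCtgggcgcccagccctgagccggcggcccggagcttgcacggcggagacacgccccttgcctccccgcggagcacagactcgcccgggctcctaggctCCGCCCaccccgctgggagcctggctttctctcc

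In the 250 bases before the RefSeq start, Gpr84 had 2 C/EBP matches, of which 1 falls in the stretch printed, Fpr1 had 3 and Fpr2 had 2. Lpar5 and P2ry1 had none, but held 1 and 2 Sp1 matches, which the other 3 promoters lacked. A second annotated start of Lpar5 also had 1 Sp1 match. Both motifs are common: of 32851 promoter windows of the same length in the table, 36.8% held the C/EBP motif and 32.7% the Sp1 motif. The TATA motif TATAAA, present in 12.4% of windows, occurred once each in the windows of Fpr1 and Fpr2. No window of the 5 genes matched the NF-kB consensus (7.25% of all windows), the AP-1 motif TGANTCA (6.75%), the cyclic AMP response element TGACGTCA (1.55%), the PU.1 motif GAGGAAGT (2.44%), the ETS motif CCGGAAGT (2.88%) or the interferon-stimulated response element (2.98%). No match overlapped another. The share of G and C was 46% for Gpr84, 38.4% for Fpr1, 38.8% for Fpr2, 56% for Lpar5 and 70.8% for P2ry1, against a median of 52.4% over all windows. A match describes letters in a window and does not show a bound site. The motifs were chosen with earlier results of these data known, and only the C/EBP and Sp1 matches were capitalised. Nothing is therefore read from how these motifs split the genes.

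Gpr84, the medium-chain fatty acid receptor gene, was highest with Pam3csk4 at 3 h. Its level was 19.3 and 18.9 CPM with AmTARS at 3 h, 11.2 and 11.7 CPM with AmTARS at 1 h, 52.3 and 75.2 CPM with Pam3csk4 at 3 h, 12.4 and 11.3 CPM with Pam3csk4 at 1 h, and 9.05 and 9.55 CPM in control libraries. Both libraries of every treated group lay above both control libraries, and the libraries of the ligands at 1 h overlapped each other. These levels rest on 317 to 2710 reads per library. Relative to control, the log2 difference of CPM + 1 was 0.97 with AmTARS at 3 h, 0.27 with AmTARS at 1 h, 2.63 with Pam3csk4 at 3 h and 0.31 with Pam3csk4 at 1 h (SE 0.11 each). SE is the standard error of the difference from a linear model over all 10 libraries, with n = 2 per group. On the CPM scale the mean was 2.06-fold that of control with AmTARS at 3 h and 6.85-fold with Pam3csk4 at 3 h.

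Hcar2, the niacin and ketone body receptor gene, followed the same order of groups at a lower level. It was at 11.5 and 11.8 CPM with AmTARS at 3 h, 7.81 and 7.83 CPM with AmTARS at 1 h, 36.7 and 56.6 CPM with Pam3csk4 at 3 h, 10.3 and 9.64 CPM with Pam3csk4 at 1 h, and 7.17 and 7.04 CPM in control libraries. All 5 groups were apart, each with both libraries above those of the next group down, and the step between AmTARS at 1 h and control was the smallest at 0.72 CPM. The libraries held 251 to 2039 Hcar2 reads. The log2 differences from control were 0.64 with AmTARS at 3 h, 0.12 with AmTARS at 1 h, 2.52 with Pam3csk4 at 3 h and 0.44 with Pam3csk4 at 1 h (SE 0.12 each). The value for AmTARS at 1 h equals its SE to 2 decimals.

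**Figure D1:**
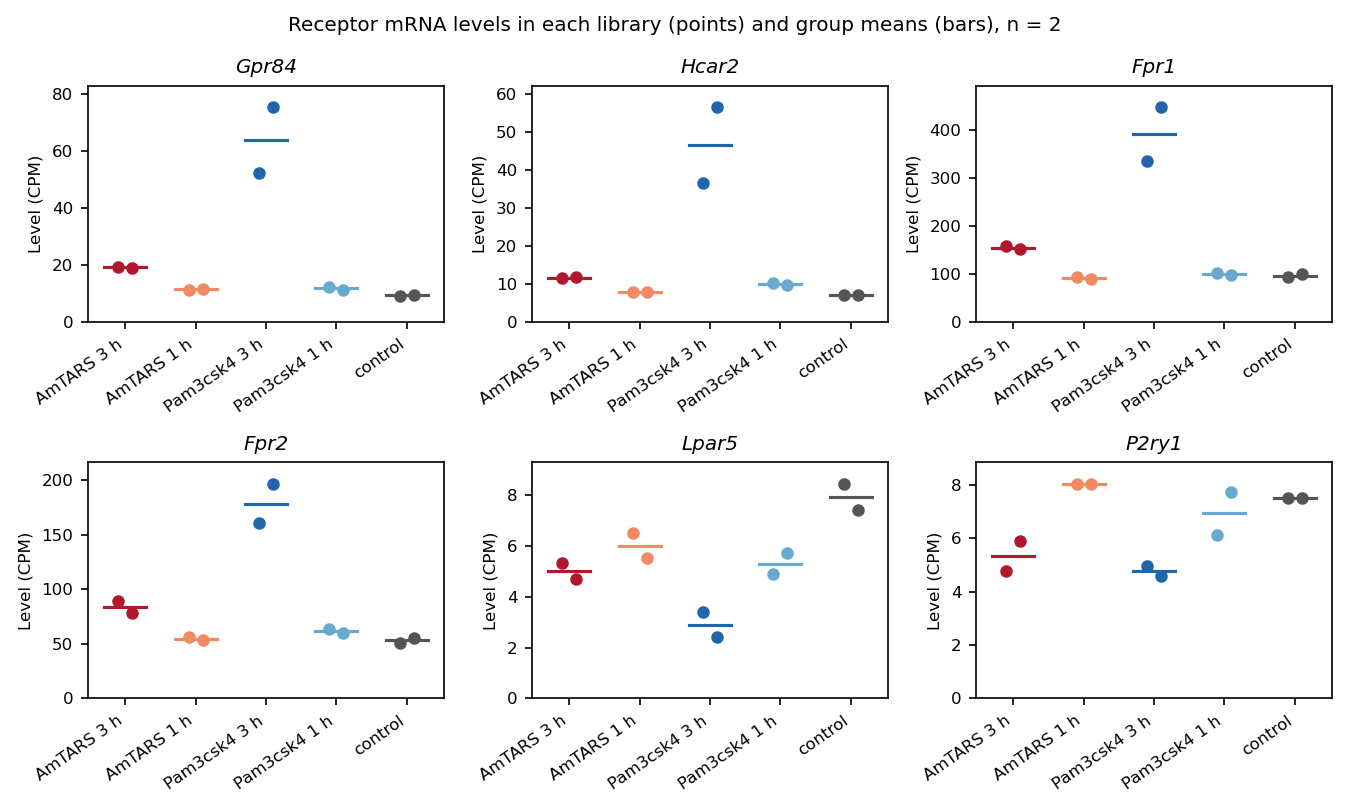
Level of each receptor gene in CPM (vertical axis, starting at 0, own scale per gene) in every library (points), with the group mean as a bar; groups run from AmTARS 3 h on the left to control on the right, with 2 libraries each. Gpr84, Hcar2, Fpr1 and Fpr2 are highest with Pam3csk4 at 3 h, where the libraries also differ most, while Lpar5 is lowest there.

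Fpr1, the formyl peptide receptor gene with the highest level of the 6, lay above control at 3 h and overlapped it at 1 h. With AmTARS at 3 h it stood at 159 and 151 CPM, with AmTARS at 1 h at 94.4 and 89.6 CPM, with Pam3csk4 at 3 h at 335 and 448 CPM, with Pam3csk4 at 1 h at 101 and 98.0 CPM, and in control libraries at 93.4 and 99.6 CPM. The order of the 3 lowest groups, Pam3csk4 at 1 h, control and AmTARS at 1 h, is not resolved, since neighbours in it overlap. Differences from control on the log2 scale were 0.68 with AmTARS at 3 h, -0.07 with AmTARS at 1 h, 2.00 with Pam3csk4 at 3 h and 0.05 with Pam3csk4 at 1 h (SE 0.08 each). Read counts ran from 2731 to 16152.

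Fpr2, the receptor gene shared by formyl peptides, annexin A1 and serum amyloid A, had the same top groups as Fpr1. Its values were 88.9 and 78.6 CPM with AmTARS at 3 h, 56.2 and 53.4 CPM with AmTARS at 1 h, 161 and 197 CPM with Pam3csk4 at 3 h, 63.5 and 60.2 CPM with Pam3csk4 at 1 h, and 51.2 and 55.0 CPM in control libraries. Here Pam3csk4 at 1 h was above control in both libraries, and AmTARS at 1 h overlapped control. The log2 differences from control were 0.65, 0.04, 1.72 and 0.22 for AmTARS at 3 h, AmTARS at 1 h, Pam3csk4 at 3 h and Pam3csk4 at 1 h (SE 0.08 each). With the sequence it shares, part of this level may come from reads of Fpr3, which the expression table does not list, or of Gm5966. Fpr1 shares only 1 of its 1275 stretches.

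Per length of transcript, the 2 formyl peptide receptor genes exceeded the other 4 in every group. With Pam3csk4 at 3 h the mean CPM per kb was 296 for Fpr1, 158 for Fpr2, 36.9 for Gpr84, 24.2 for Hcar2, 2.00 for Lpar5 and 1.23 for P2ry1. In control libraries it was 72.9 for Fpr1, 46.9 for Fpr2, 5.45 for Lpar5, 5.39 for Gpr84, 3.68 for Hcar2 and 1.93 for P2ry1. Lpar5 thus stood far below Gpr84 with Pam3csk4 at 3 h and beside it in control libraries. The ratio of Fpr1 to Fpr2 per length was 1.79 and 1.95 with Pam3csk4 at 3 h, 1.53 and 1.65 with AmTARS at 3 h, and 1.56 and 1.55 in control libraries. It was lower at 1 h, at 1.44 in both AmTARS libraries and at 1.36 and 1.39 with Pam3csk4, so the pair did not keep 1 ratio across groups.

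Lpar5, a receptor gene for lysophosphatidic acid, was lower than control in all 8 treated libraries. It was at 5.34 and 4.71 CPM with AmTARS at 3 h, 6.51 and 5.54 CPM with AmTARS at 1 h, 3.41 and 2.41 CPM with Pam3csk4 at 3 h, 4.89 and 5.74 CPM with Pam3csk4 at 1 h, and 8.45 and 7.43 CPM in control libraries. Control was apart at the top and Pam3csk4 at 3 h apart at the bottom, while AmTARS at 1 h overlapped Pam3csk4 at 1 h, which in turn overlapped AmTARS at 3 h. The log2 differences from control were -0.57 with AmTARS at 3 h, -0.35 with AmTARS at 1 h, -1.20 with Pam3csk4 at 3 h and -0.50 with Pam3csk4 at 1 h (SE 0.12 each). These are low counts, 87 to 296 reads per library, with a counting error of up to 10.7% of the level, and the added 1 CPM understates the differences.

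P2ry1, the ADP receptor gene, was lower than control with both ligands at 3 h and not at 1 h. Its level was 4.77 and 5.89 CPM with AmTARS at 3 h, 8.03 and 8.01 CPM with AmTARS at 1 h, 4.97 and 4.58 CPM with Pam3csk4 at 3 h, 6.11 and 7.74 CPM with Pam3csk4 at 1 h, and 7.51 CPM in both control libraries. The ligands overlapped each other at 3 h, and Pam3csk4 at 1 h overlapped control. AmTARS at 1 h lay just above control, by 0.51 CPM. Log2 differences from control were -0.43 with AmTARS at 3 h, 0.08 with AmTARS at 1 h, -0.56 with Pam3csk4 at 3 h and -0.11 with Pam3csk4 at 1 h (SE 0.11 each). Without replicate 1 of Pam3csk4 at 1 h, the value of that group was 0.04, and without replicate 3 it was -0.26.

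Counted over the genes, both libraries of AmTARS at 3 h lay above both control libraries for 4 of the 6 (Gpr84, Hcar2, Fpr1, Fpr2) and below for 2 (Lpar5, P2ry1). Among all 11407 tested genes 35.9% were higher and 35.4% lower in this sense. The split was the same with Pam3csk4 at 3 h, 4 higher and 2 lower, where 37.1% of all genes were higher and 38.5% lower. With AmTARS at 1 h 3 were higher (Gpr84, Hcar2, P2ry1) and 1 lower (Lpar5), against 34.8% and 35.6% of all genes. With Pam3csk4 at 1 h 3 were higher (Gpr84, Hcar2, Fpr2) and 1 lower (Lpar5), against 37.6% and 38.2%. Since the genes were chosen for these differences, and the 4 comparisons share the control libraries, nothing is read from these counts. Groups of 2 libraries that do not overlap are common here.

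Transcript length moved with every comparison against control. Spearman's rho between length and log2 difference was -0.638 with AmTARS at 3 h, -0.706 with AmTARS at 1 h, -0.485 with Pam3csk4 at 3 h and -0.699 with Pam3csk4 at 1 h, across 11366 genes, which are not independent replicates. The longest transcripts of 5 of the receptor genes, at 1133 nt (Fpr2) to 1930 nt (Hcar2), are shorter than the median of 3405 nt, and that of P2ry1, at 3886 nt, is longer. After each library was corrected for length and GC content, the differences from control were 0.81, 0.53, 0.53 and 0.47 with AmTARS at 3 h for Gpr84, Hcar2, Fpr1 and Fpr2. With Pam3csk4 at 3 h they were 2.47, 2.41, 1.80 and 1.50 for the same genes. Lpar5 was then at -0.79 with AmTARS at 3 h and -1.42 with Pam3csk4 at 3 h, further from 0 than before, and P2ry1 at -0.38 and -0.52. All 6 genes kept the sign of their 3 h differences. At 1 h 3 small differences changed sign: Fpr2 was at -0.16 with AmTARS and at -0.02 with Pam3csk4, and Fpr1 at -0.17 with Pam3csk4. With AmTARS at 1 h Gpr84 was then at 0.10, Hcar2 at 0.01 and Lpar5 at -0.60. With Pam3csk4 at 1 h they were at 0.09, 0.29 and -0.82, so Gpr84 and Hcar2 moved towards 0 and Lpar5 away from it.

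**Figure D2:**
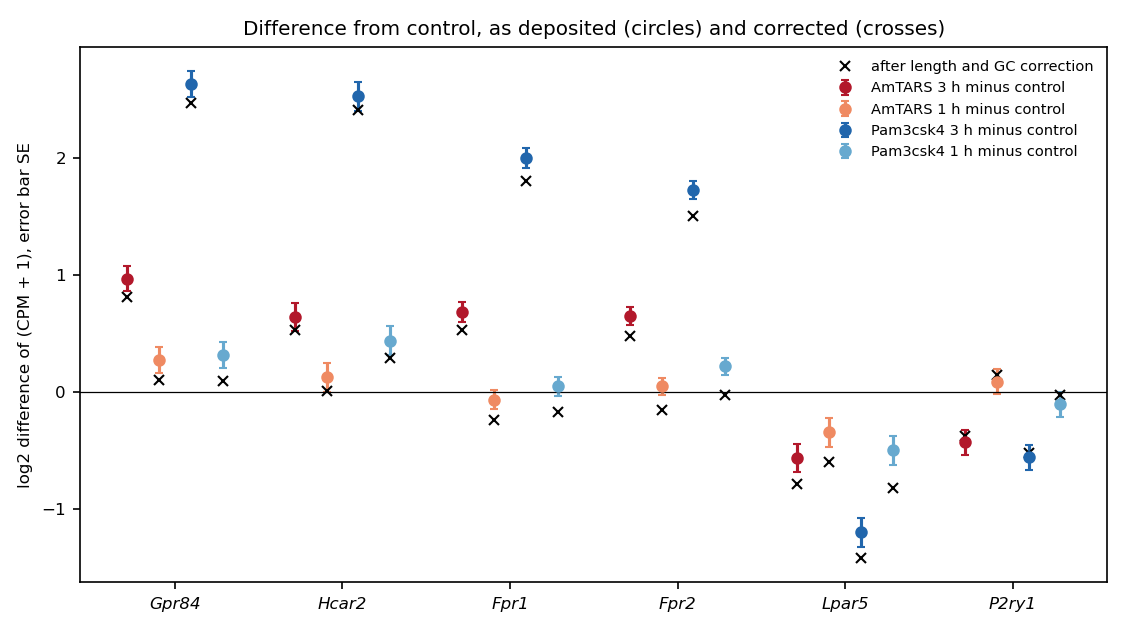
Log2 difference of (CPM + 1) from control for the 6 receptor genes as deposited (circles, with SE bars, n = 2 per group) and after the length and GC correction (crosses), for AmTARS 3 h, AmTARS 1 h, Pam3csk4 3 h and Pam3csk4 1 h from left to right within each gene. The correction moves the 1 h values of Gpr84, Fpr1 and Fpr2 close to or below 0, and leaves the 3 h values on the same side of 0.

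Set against each other at 3 h, the ligands gave the same side of control for all 6 genes, with the AmTARS mean nearer to control for each. The mean CPM with AmTARS was 0.300 times that with Pam3csk4 for Gpr84, 0.249 times for Hcar2, 0.396 times for Fpr1 and 0.469 times for Fpr2. For Lpar5 it was 1.73 times and for P2ry1 1.12 times. On the log2 scale AmTARS minus Pam3csk4 was -1.66 for Gpr84, -1.89 for Hcar2, -1.31 for Fpr1, -1.08 for Fpr2, 0.63 for Lpar5 and 0.13 for P2ry1. Libraries of the ligands were apart for 5 genes, 1 higher with AmTARS (Lpar5) and 4 lower, and overlapped for P2ry1, while 28.6% of all tested genes were higher and 26.5% lower. Length barely moved with this comparison (rho -0.01), and the correction left Gpr84 at -1.66 and Hcar2 at -1.88. The spread was widest with Pam3csk4 at 3 h, where replicate 3 had 1.44 times the Gpr84 level, 1.54 times the Hcar2 level and 1.34 times the Fpr1 level of replicate 2.

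At 1 h the ligands were closer. AmTARS minus Pam3csk4 was -0.31 for Hcar2, -0.17 for Fpr2, -0.11 for Fpr1 and 0.19 for P2ry1, for which the libraries were apart. That count of 4, 1 higher and 3 lower, stands beside 18.9% and 18.8% of all tested genes. Gpr84 at -0.04 and Lpar5 at 0.15 overlapped. The P2ry1 value was 0.04 without replicate 1 of Pam3csk4 at 1 h and 0.34 without its replicate 3. Length moved with this comparison (rho 0.316).

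Between 3 h and 1 h of the same ligand, which shares no control library, 4 genes were higher and 2 lower for either ligand. With AmTARS 23.1% of all genes were higher and 21.1% lower, and with Pam3csk4 30.0% and 33.5%. The AmTARS differences, 3 h minus 1 h, were 0.69 for Gpr84, 0.52 for Hcar2, 0.75 for Fpr1, 0.60 for Fpr2, -0.22 for Lpar5 and -0.52 for P2ry1. With Pam3csk4 they were 2.32, 2.09, 1.95, 1.51, -0.70 and -0.45 in the same order of genes. For Fpr1 and Fpr2 these differences were about as large as those of the same ligand at 3 h from control, while Lpar5 was already below control at 1 h. The AmTARS value of Lpar5 was -0.12 without replicate 2 of AmTARS at 1 h, and the Pam3csk4 value of P2ry1 ran from -0.60 to -0.30 as libraries were left out.

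Across the 10 libraries the genes split into a group of 4 and a pair. Pearson's r of the log2 values was 0.978 to 0.995 between Gpr84, Hcar2, Fpr1 and Fpr2, 0.78 between Lpar5 and P2ry1, and -0.80 to -0.93 between the sets. Without the 2 libraries of Pam3csk4 at 3 h, over 8 libraries, r was 0.81 to 0.96 within the first set, 0.55 within the pair and -0.53 to -0.93 between them. These values describe 5 groups of 2 libraries that share depth and scaling, and no p is given.

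Among 1385 genes whose group means spanned at least 0.5 on the log2 scale and reached 5 CPM, those most like each receptor gene over the 10 libraries were as follows. For Gpr84 they were Pilra (r = 0.998), Ehd1, Clec4e, Lmo4 and Tlr2 (0.997), of which Clec4e and Tlr2 encode pattern recognition receptors. For Hcar2 they were Slc2a6 (0.995), Cxcl3, Upp1, Sdc4 and Tlr2 (0.992), with Cxcl3 a chemokine gene and Slc2a6 a sugar transporter gene. Fpr1 was most like Clec4e (0.998), Irg1, the gene of the enzyme that makes itaconate, Birc3, Fpr2 and Tarm1 (0.994). Fpr2 was most like Clec4e and Sod2 (0.996 each), Fpr1, Fas and Gpr84 (0.994). For Lpar5 the list was Wwp1 (0.98), Pdxk, Dusp7, Gcnt1 and Bcl2l11 (0.976). P2ry1 had weaker matches, Olfm1 (0.931), Zfyve28, Slc5a3, Nipal3 and Fam198b (0.898). Over the 8 libraries without Pam3csk4 at 3 h, r was 0.90 to 0.99 for the genes matched to the 4 higher receptor genes, 0.92 to 0.95 for those of Lpar5 and 0.82 to 0.90 for those of P2ry1.

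The cultures are bulk samples, in which fewer cells of a type and less RNA per cell cannot be told apart. All 9 macrophage markers searched were listed, led by Lyz2, with a summed level of 50848 to 53669 CPM with AmTARS at 3 h, 52178 to 54396 CPM with Pam3csk4 at 3 h and 49529 to 51245 CPM in control libraries. Lyz2 makes up most of this sum and did not pass the test described below in any comparison with control. Of the 9 markers, 2 rose and 2 fell with AmTARS at 3 h, 1 and 3 with AmTARS at 1 h, 4 and 3 with Pam3csk4 at 3 h, and 1 and 4 with Pam3csk4 at 1 h. With Pam3csk4 at 3 h Mertk was at -1.02 and Cd14 at 1.58 on the log2 scale. Neutrophils also carry formyl peptide receptors, and 11 of 12 neutrophil markers were listed, the defining marker Ly6g being the exception. Their summed level was 2780 to 2881 CPM with AmTARS at 3 h, 2755 to 2847 CPM with AmTARS at 1 h, 3026 to 3434 CPM with Pam3csk4 at 3 h, 2729 to 3117 CPM with Pam3csk4 at 1 h and 2324 to 2405 CPM in control libraries. It was above control in every treated library. Of the 11 markers, 6 rose and 1 fell with AmTARS at 3 h, 7 and 1 with AmTARS at 1 h, 8 and 1 with Pam3csk4 at 3 h, and 7 and 2 with Pam3csk4 at 1 h, by the test described next. Their part in the receptor levels was not tested. Beside the counts of both marker lists, 18.8% of all tested genes rose and 17.9% fell with AmTARS at 3 h. These shares were 18.9% and 19.8% with AmTARS at 1 h, 24.7% and 24.2% with Pam3csk4 at 3 h, and 23.9% and 24.8% with Pam3csk4 at 1 h. The marker counts were taken without a correction for length and GC content. The 5 fibroblast markers summed to 1540 to 1624 CPM in control libraries. With AmTARS they summed to 1407 to 1493 CPM at 3 h and 1336 to 1465 CPM at 1 h. With Pam3csk4 they summed to 1350 to 1543 CPM at 3 h and 1434 to 1560 CPM at 1 h. Of the other types, 4 of 9 dendritic cell markers, 2 of 5 mast cell markers, 1 of 5 B cell markers and 0 of 5 T cell markers were listed.

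Genes of related receptors were tested with limma, a linear model over all 10 libraries, and an adjusted p below 0.05 (Benjamini-Hochberg over all tested genes) counted as a rise or fall. Of 72 other receptor genes for chemoattractants, metabolites, lysophospholipids and nucleotides, 42 were tested. With AmTARS at 3 h 10 rose and 9 fell, while 18.8% of all tested genes rose and 17.9% fell. With Pam3csk4 at 3 h 13 rose and 12 fell, against 24.7% and 24.2% of all genes. With AmTARS at 1 h 6 rose and 7 fell (18.9% and 19.8% of all genes), and with Pam3csk4 at 1 h 7 rose and 9 fell (23.9% and 24.8%). The count for AmTARS at 3 h was 11 without its replicate 1 and 10 without control replicate 2, and that for AmTARS at 1 h was 6 without its replicate 3 and 7 without control replicate 2.

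Adora2a and Adora2b, genes of adenosine receptors, rose with both ligands at 3 h. Adora2a had 20.1 and 19.6 CPM with AmTARS at 3 h, 46.1 and 58.5 CPM with Pam3csk4 at 3 h, and 14.1 and 12.8 CPM in control libraries. It rose by 0.53 (SE 0.09, adjusted p = 0.000147) with AmTARS at 3 h and by 1.88 (SE 0.09, adjusted p = 9.25e-13) with Pam3csk4 at 3 h. Adora2b rose by 0.79 (SE 0.09, adjusted p = 5.58e-06) and by 1.95 (SE 0.09, adjusted p = 6.27e-13). Adora3, another adenosine receptor gene, went the other way at a low level, with a mean of 1.89 CPM in control libraries. It fell by 0.48 (SE 0.13, adjusted p = 0.00596) with AmTARS and by 0.41 (SE 0.13, adjusted p = 0.0103) with Pam3csk4 at 3 h. Of the 11 nucleotide and adenosine receptor genes tested, 2 rose and 2 fell with AmTARS at 3 h, against 18.8% and 17.9% of all tested genes. With Pam3csk4 at 3 h 4 rose and 3 fell, against 24.7% and 24.2%. P2rx7, an ATP-gated channel gene, fell by 0.66 (SE 0.06, adjusted p = 5.73e-08) with Pam3csk4 at 3 h. The list median was -0.05 with AmTARS and 0.03 with Pam3csk4 at 3 h, beside 0.00 and -0.01 over all tested genes.

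Gpr132, Gpr65 and Gpr18, from the list of metabolite and proton receptors, rose with both ligands at 3 h. Of the 7 tested in that list, 4 rose and 0 fell with AmTARS at 3 h and 5 rose and 2 fell with Pam3csk4 at 3 h. The medians of that list were 0.29 and 0.50. Of all tested genes 18.8% rose and 17.9% fell with AmTARS at 3 h, and 24.7% and 24.2% with Pam3csk4 at 3 h. Gpr132 rose by 0.29 (SE 0.06, adjusted p = 0.00097) with AmTARS and by 0.87 (SE 0.06, adjusted p = 3.07e-10) with Pam3csk4, and Gpr65, a proton sensor gene, by 0.34 (SE 0.06, adjusted p = 0.000129) with AmTARS. Gpr18 rose by 0.51 (SE 0.13, adjusted p = 0.00564) with AmTARS, with an adjusted p of 0.0514 without AmTARS replicate 1, and by 1.53 (SE 0.13, adjusted p = 1.5e-08) with Pam3csk4. Gpr183, an oxysterol receptor gene, fell by 0.64 (SE 0.14, adjusted p = 0.000926) with Pam3csk4 at 3 h. Of 5 lysophospholipid receptor genes tested, 1 rose with AmTARS at 3 h (S1pr4) and 2 fell with Pam3csk4 at 3 h, where Lpar6, another receptor gene for lysophosphatidic acid, fell by 0.59 (SE 0.06, adjusted p = 4.26e-08). The list medians were 0.06 and 0.01. S1pr4 did not pass without either AmTARS 3 h library or either control library, or after the length and GC correction.

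Of 19 chemoattractant receptor genes tested, 3 rose and 7 fell with AmTARS at 3 h, against 18.8% and 17.9% of all tested genes. With Pam3csk4 at 3 h 4 rose and 5 fell, against 24.7% and 24.2%. The list medians were -0.16 with AmTARS and -0.04 with Pam3csk4. Ccrl2, which encodes a chemerin-binding receptor, rose by 0.36 (SE 0.06, adjusted p = 0.000222) with AmTARS and by 1.23 (SE 0.06, adjusted p = 3.86e-12) with Pam3csk4 at 3 h. Ccr2, the receptor gene for Ccl2, fell by 0.47 (SE 0.09, adjusted p = 0.00045) and by 0.93 (SE 0.09, adjusted p = 4.17e-08), and its AmTARS value was -0.29 after the length and GC correction. Ptafr, the receptor gene for platelet-activating factor, fell by 0.46 (SE 0.06, adjusted p = 2.96e-05) with AmTARS at 3 h and stood at -0.04 with Pam3csk4 at 3 h without passing. At 1 h Ptafr fell with both ligands, by 0.50 (SE 0.06, adjusted p = 1.3e-05) with AmTARS and by 0.72 (SE 0.06, adjusted p = 1.06e-07) with Pam3csk4. Both chemokine receptor genes Cxcr4, at -0.77 (SE 0.07, adjusted p = 3.08e-08), and Cxcr3, at -0.94 (SE 0.12, adjusted p = 4.28e-06), fell with Pam3csk4 at 3 h.

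**Figure D3:**
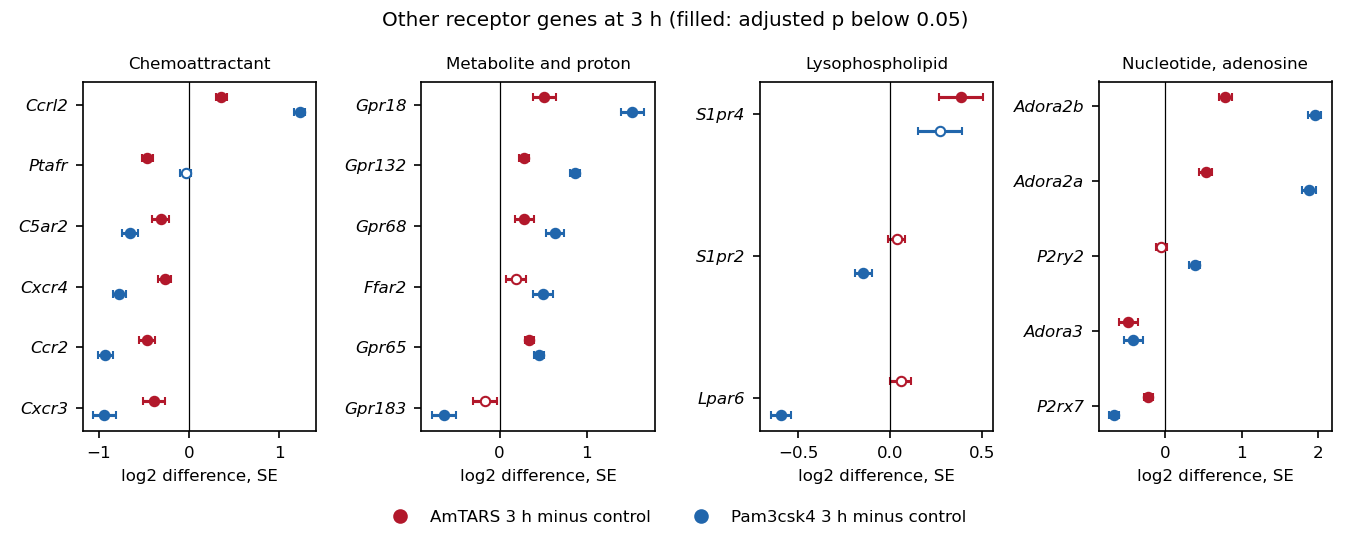
Log2 difference from control at 3 h (horizontal axis, bars SE, n = 2 per group) for the receptor genes that the naming rule picked in each list, with AmTARS above Pam3csk4 for each gene; filled points passed at an adjusted p below 0.05 in limma. Adora2b, Adora2a, Gpr18 and Ccrl2 lie furthest to the right with Pam3csk4, and Ccr2 and Cxcr3 lie left of 0 with both ligands.

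Between the ligands at 3 h, 11 of the 42 receptor genes were higher with AmTARS and 14 lower, against 8.04% and 9.08% of all tested genes, and the sum of 25 was 15 without replicate 3 of Pam3csk4 at 3 h. Adora2a was at -1.35, Adora2b at -1.16, Gpr18 at -1.01 and Lpar6 at 0.65 (adjusted p from 4.45e-10 to 1.05e-05). At 1 h 0 of the 42 passed in limma, against 0.00877% higher and 0.175% lower of all tested genes, with 5 at an unadjusted p below 0.05 and 0 by limma-voom on the recovered reads. Without either library of Pam3csk4 at 3 h, 1 passed. An interaction term asked whether the change between 3 h and 1 h differed between the ligands. Over all genes named from the receptor, signalling and ligand lists, 6 passed with a higher and 16 with a lower value for AmTARS out of 51, against 3.49% and 5.71% of all tested genes. Nothing is read from this count, since the genes were named for having the largest changes in these same libraries, including those between the ligands at 3 h.

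Downstream of the receptors, 41 genes of G proteins, their effectors and their regulators were tested. With AmTARS at 3 h 10 rose and 4 fell, with AmTARS at 1 h 11 and 9, with Pam3csk4 at 3 h 14 and 7, and with Pam3csk4 at 1 h 10 and 11, with list medians from 0.01 to 0.10. Of all tested genes 18.8% rose and 17.9% fell with AmTARS at 3 h, 18.9% and 19.8% with AmTARS at 1 h, 24.7% and 24.2% with Pam3csk4 at 3 h, and 23.9% and 24.8% with Pam3csk4 at 1 h. After the length and GC correction 7 list genes passed with AmTARS at 3 h, 7 with AmTARS at 1 h and 12 with Pam3csk4 at 1 h. Pik3r5 and Pik3r6, both genes of regulatory subunits of the PI3-kinase that G proteins switch on, rose with Pam3csk4 at 3 h by 0.52 (SE 0.05, adjusted p = 7.48e-08) and 0.70 (SE 0.07, adjusted p = 2.38e-07). With AmTARS at 3 h they were at 0.03 and 0.11 and did not pass. Rgs2, a gene of a regulator that ends G protein signals, had 122 and 114 CPM with AmTARS at 3 h, 57.7 and 49.0 CPM with Pam3csk4 at 3 h and 113 and 120 CPM in control libraries, a fall of 1.12 (SE 0.07, adjusted p = 3.98e-11) with Pam3csk4. Rgs1 rose by 0.38 (SE 0.07, adjusted p = 0.000569) with AmTARS at 3 h, and stood at 0.59 after the correction. With Pam3csk4 at 3 h it was at 0.13 and did not pass. At 1 h Rgs1 rose with both ligands, by 0.33 (SE 0.07, adjusted p = 0.00161) with AmTARS and by 0.35 (SE 0.07, adjusted p = 0.000571) with Pam3csk4. Between the ligands 7 were higher with AmTARS and 8 lower at 3 h, against 8.04% and 9.08% of all tested genes, and 0 passed at 1 h in limma, with 3 at an unadjusted p below 0.05 and 0 by limma-voom. The sum for AmTARS at 3 h was 6 without its replicate 1 and 9 without control replicate 2. That for AmTARS at 1 h was 12 and 13 without its replicates 2 and 3 and 13 without control replicate 2, and the sum between the ligands at 3 h was 9 without replicate 3 of Pam3csk4.

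A list of ligand genes held 27 tested genes that encode ligands of the 6 receptors or act on such ligands or related molecules. Of these, 8 rose and 4 fell with AmTARS at 3 h, 6 and 4 with AmTARS at 1 h, 9 and 5 with Pam3csk4 at 3 h, and 9 and 7 with Pam3csk4 at 1 h. List medians ran from 0.04 to 0.09. The shares of all tested genes that rose and fell are those given for the G protein list. After the length and GC correction 6 passed with AmTARS at 1 h and 10 with Pam3csk4 at 1 h. Saa3, a serum amyloid A gene, rose by 0.44 (SE 0.07, adjusted p = 0.000151) with AmTARS and by 0.95 (SE 0.07, adjusted p = 2.04e-09) with Pam3csk4 at 3 h. Camp, which encodes cathelicidin, a peptide that acts on formyl peptide receptors, rose by 0.50 (SE 0.08, adjusted p = 8.59e-05) and by 0.79 (SE 0.08, adjusted p = 7.21e-08), and it is also 1 of the neutrophil markers above. After the correction Camp was at 0.23 with AmTARS and at 0.51 with Pam3csk4 at 3 h. Ppap2a, a gene of a phosphatase that breaks down lysophosphatidic acid, rose by 0.73 (SE 0.10, adjusted p = 9.61e-06) with Pam3csk4 at 3 h. Entpd1, the gene of the ecto-enzyme CD39 that removes ATP and ADP, fell by 0.43 (SE 0.05, adjusted p = 1.06e-06) with Pam3csk4 at 3 h. Between the ligands 3 were higher with AmTARS and 5 lower at 3 h, against 8.04% and 9.08% of all tested genes, and 0 passed at 1 h in limma, with 1 at an unadjusted p below 0.05 and 0 by limma-voom. The sum for AmTARS at 3 h was 6 without its replicate 1 and 7 without control replicate 3. That for AmTARS at 1 h was 6 without its replicate 3 or either control library, and the sum between the ligands at 3 h was 5 without replicate 3 of AmTARS and 4 without replicate 3 of Pam3csk4.

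**Figure D4:**
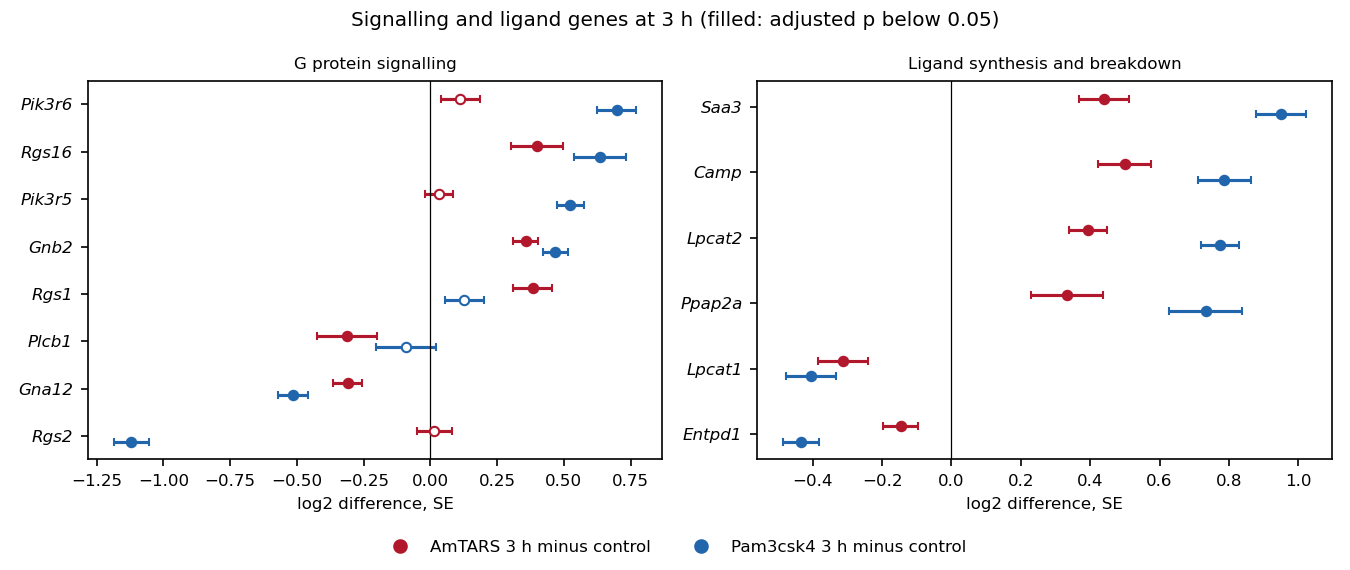
Log2 difference from control at 3 h (horizontal axis, bars SE, n = 2 per group) for G protein signalling genes (left) and genes of the ligand list (right), with AmTARS above Pam3csk4 for each gene. Filled points passed at an adjusted p below 0.05 in limma. Rgs2 lies near 0 with AmTARS and at -1.12 with Pam3csk4, and Saa3 lies to the right with both.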

How the data were processed

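Poly-A selected, stranded libraries were made per the labels' protocols. Reads were aligned with STAR 2.5.1 to mouse build mm10, and R 3.3.0 was used, per the submitters' processing notes. Which counter, annotation and scaling were used is not given in the sources used here. From this processing the authors deposited log2 values of CPM + 1 for 11617 genes in 10 libraries. Back-transformed with 1 factor per library, 100% of values were whole reads to within 0.1 read, 27398791 to 37559810 reads per library in listed genes. The lowest value in the table was 3 reads, so genes at 0 are not among those analysed.

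The 11407 genes that averaged 1 CPM or more were fitted on the deposited log2 scale with limma 3.58.1 in R 4.3.3, with 1 mean per group, an intensity trend and Benjamini-Hochberg adjustment within each comparison. SE is limma's moderated standard error, with 5 residual and 14.7 prior degrees of freedom, and may be too small for Pam3csk4 at 3 h. The fit was tested on simulated data. The SD behind each mean is that of 2 libraries.

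The 6 genes, the gene lists and the motifs were chosen with earlier results of these data known. From each list up to 5 genes with the largest change among those that passed were named per comparison. Transcript lengths come from GENCODE M21. Each result was recomputed with other filters, with pseudocounts of 0.25 and 5, with quantile scaling, with limma-voom on the recovered reads, with a length and GC correction by natural splines with 5 degrees of freedom each, with a replicate block and without each library in turn. The fit on genes matched to a length without the correction, and the correlations without Pam3csk4 at 3 h, were added after seeing the data. Plots used Python 3.11.15 and matplotlib 3.10.9.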

Additional observations from a re-analysis of the deposited data

Results flagged for a closer look

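P2ry1 lay below control with AmTARS at 3 h and above it by a small margin with AmTARS at 1 h. Relative to control it was at -0.43 (SE 0.11) on the log2 scale with AmTARS at 3 h. With AmTARS at 1 h it was at 0.08 (SE 0.11), a value below its SE. Both libraries of either time were apart from both control libraries, and the difference between times was not tested. The control libraries both stood at 7.51 CPM, with counting errors of 6.2% and 6.1% of the level. An opposite direction at 1 h is therefore not resolved.

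Among 51 list genes named in any comparison, 22 had a change between 3 h and 1 h that differed between the ligands, by an interaction term in limma with Benjamini-Hochberg adjustment (adjusted p from 6.74e-08 to 0.0398). Over all tested genes, 3.49% passed with a higher and 5.71% with a lower value for AmTARS. The 51 genes were named for the largest changes in these same libraries, including those between the ligands at 3 h, so nothing is read from the count beside that share. The values are (AmTARS 3 h minus 1 h) minus (Pam3csk4 3 h minus 1 h) on the log2 scale. Among the receptor genes they were -1.34 for Adora2a, -1.06 for Adora2b, -1.05 for Gpr18, -0.71 for Ccr3, -0.65 for Ptafr, -0.60 for Ccrl2, -0.55 for Gpr132, -0.42 for P2ry2, -0.41 for Ccr7 and -0.39 for Cmklr1. Positive values were 0.75 for Lpar6, 0.38 for P2rx7 and 0.38 for Cxcr4. Among the G protein signalling genes they were 1.15 for Rgs2, 0.42 for Rgs14, -0.53 for Pik3r5, -0.53 for Pik3r6 and -0.52 for Pik3cg. Among the genes of the ligand list they were -0.54 for Ppap2b, -0.40 for Lpcat2, -0.36 for Saa3 and 0.25 for Entpd1. In all, 16 of the 22 values were negative and 6 positive.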

How the results depend on the processing

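Of the counts recomputed under the alternatives, 376 stayed within 1.5 times the reported one and 30 moved further. After the length and GC correction, the G protein signalling genes that passed were 7 with AmTARS at 3 h, 7 with AmTARS at 1 h, 12 with Pam3csk4 at 1 h and 1 between the ligands at 1 h. The ligand genes were then 6 with AmTARS at 1 h and 10 with Pam3csk4 at 1 h. Over all tested genes, 2418 passed with AmTARS at 3 h after the correction against 4186 as deposited, 1946 against 4415 with AmTARS at 1 h and 3163 against 5556 with Pam3csk4 at 1 h. The cause was not tested. Of the differences of the 6 genes, 666 stayed within the spread of the libraries, 53 moved further and 1 whose libraries had been apart changed sign. That was Fpr2 with Pam3csk4 at 1 h, at -0.0248 after the correction. Leaving out a library of a group outside a comparison cannot change its difference. Leaving out 1 of 2 libraries inside it always shifts the difference by less than that spread. Every value with a library left out therefore had to stay, so many of the 666 were fixed in advance. Only the other alternatives could move a difference, and the 53 and the 1 all came from them.

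Deviations of same-numbered libraries correlated at -0.206 to 0.204, with 5 of 14 pairs above 0.1. With 2 libraries per group the deviations mirror each other, so these pairs are not independent. These values do not settle whether the replicate numbers pair the libraries. With the replicate block, 9 other receptor genes passed with AmTARS at 3 h and 10 with Pam3csk4 at 1 h, 7 G protein signalling genes and 6 ligand genes with AmTARS at 3 h, and 2017 of all tested genes with AmTARS at 3 h. Gpr18 with AmTARS at 3 h then had an adjusted p of 0.0694 in limma.

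Leaving out 1 library at a time gave 10 to 20 other receptor genes with AmTARS at 3 h, 6 to 15 with AmTARS at 1 h, 20 to 26 with Pam3csk4 at 3 h, 11 to 19 with Pam3csk4 at 1 h, and 15 to 25 between the ligands at 3 h and 0 to 1 at 1 h. For G protein signalling genes the ranges were 6 to 16, 12 to 21, 15 to 22 and 16 to 21 in the same order, and 9 to 16 between the ligands at 3 h. For ligand genes they were 6 to 12, 6 to 12, 10 to 16 and 11 to 16, and 4 to 10 between the ligands at 3 h. The receptor genes apart between groups numbered 6 at 3 h against control, 5 with AmTARS at 1 h, 4 to 6 with Pam3csk4 at 1 h, 5 to 6 between the ligands at 3 h and 4 to 6 at 1 h. With all libraries these numbers were 6, 4, 4, 5 and 4 in the same order. Leaving out a library can only keep or raise such a number, so these ranges test nothing. With 2 libraries a group, the remaining library is assumed to vary like the other groups. Over all tested genes, 1997 passed with AmTARS at 3 h without its replicate 1 and 2313 without control replicate 2, and 2603 with AmTARS at 1 h without control replicate 2. Between the ligands at 3 h, 1193 passed without replicate 1 of AmTARS and 1141 without replicate 3 of Pam3csk4, against 1953 with all libraries. At 1 h, 33 and 34 passed without replicate 2 and 3 of Pam3csk4 at 3 h, against 21. Depth limits Lpar5 and P2ry1 most.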
